A study of Mus musculus with 8 samples.

Results

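The genes described here are a list of 9 apolipoproteins chosen by their measured level and by their change between Kap1 knock-down (KD) and control in these samples, Apoa1, Apoa2, Apoa4, Apoa5, Apob, Apoc1, Apoe, Apoh and Apom, of which 8 were found by symbol among the 21915 Ensembl genes of the mRNA table and Apoa4 is not analysed here. They were measured in Hepa 1-6 cells, a mouse hepatoma line, in 2 control and 2 Kap1 KD samples of polyadenylated RNA. KAP1, encoded by Trim28, is a co-repressor that nucleates heterochromatin. Kap1 KD cells carried a pLKO vector encoding an shRNA against Kap1, and controls carried the empty vector according to the methods, or a control shRNA according to the labels. The cells were collected 5 days after transduction and had been selected with puromycin, so that each sample is a population of 1 cell line and not an animal. The labels speak of transfection in 1 field and of transduction in another. Nothing states that the 2 samples of a group were separate cultures, so p-values measure only the spread between these samples, which may be technical. In each group 1 sample is titled with the number 2, and the other bears no number and is called replicate 1.

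Apolipoproteins are the protein shell of lipoprotein particles, which carry triglyceride and cholesterol through the blood, and the liver is their main source. Apob is the structural protein of very-low-density and low-density lipoprotein, while Apoa1 and Apoa2 build high-density lipoprotein (HDL). The smaller exchangeable apolipoproteins, such as Apoe and Apoc1, move between particles and steer receptor binding and lipase activity. Within hepatocytes a lipid transfer protein loads Apob with lipid in the endoplasmic reticulum, and receptors of the LDL receptor family later take the particles back up.

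The libraries held between 41566888 and 53605115 counts. Trim28 had 456 and 575 normalized counts scaled to library size (CPM) in control replicates 1 and 2, against 106 and 78.9 CPM after Kap1 KD. Kap1 KD replicate 2 stood apart from the other libraries by Lars2, a mitochondrial leucyl-tRNA synthetase gene, at 6905 CPM against 239 to 286. The gene AY036118 also stood apart there, at 298 CPM against 18.4 to 20.9, and the cause was not tested. Of the hepatocyte markers, Alb (441 to 1580 CPM), Afp (445 to 750 CPM) and Rbp4 (378 to 639 CPM) were abundant. By contrast, Ttr, Fga, Ahsg, Serpina1a, Serpina1c, Cps1 and Asgr1 had at most 11 counts in any library. Markers listed for other cell types were mixed. The leukocyte gene Ptprc had 4 to 8 counts, the endothelial gene Cdh5 0 to 2 and the mural cell gene Pdgfrb 0 to 1. Dcn of the stellate and fibroblast list was at 1227 to 1700 CPM, the cholangiocyte markers summed to 176 to 265 CPM, led by Spp1 at 96.3 to 148 CPM, and the macrophage markers summed to 21.6 to 39.6 CPM, led by Cd14 at 16.7 to 29.0 CPM. The endothelial markers summed to 1.58 to 2.04 CPM.

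The promoters of Apob and Apoe are shown because these were the listed genes with the most counts and the results turn on them. Each is the 250 bases before the most upstream RefSeq start in build GRCm38.p6, 5′ to 3′ on the strand of the gene. Apob is at chr12:7977427-7977676 on the plus strand, and Apoe at chr7:19699189-19699438 on the minus strand. Capitals mark matches to the motifs searched on both strands.
Apob: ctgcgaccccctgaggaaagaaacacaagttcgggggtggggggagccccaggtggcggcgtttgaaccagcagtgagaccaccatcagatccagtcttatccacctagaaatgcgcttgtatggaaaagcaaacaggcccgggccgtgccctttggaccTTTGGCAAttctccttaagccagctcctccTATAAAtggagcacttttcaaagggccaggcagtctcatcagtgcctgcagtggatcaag
Apoe: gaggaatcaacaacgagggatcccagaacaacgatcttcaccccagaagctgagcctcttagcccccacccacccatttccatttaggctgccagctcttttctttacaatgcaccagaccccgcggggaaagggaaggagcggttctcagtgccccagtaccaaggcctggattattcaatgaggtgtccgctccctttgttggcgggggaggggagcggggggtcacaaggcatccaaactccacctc
The Apob window held TATAAA, the TATA box, and a match on the other strand to TTGCNNAA, a motif of the C/EBP type. Among the windows of 27025 genes, 13.0% held TATAAA and 9.55% held TTGCNNAA. The Apoe window held neither, nor did it hold CCAAT (34.5% of windows), GGGCGG, the GC box (33.0%), or AGGTCA, the nuclear receptor half-site (13.8%). CAAAGTCCA, of the HNF4 type (0.377%), matched in none of the 8 promoters found for the listed genes. The motifs do not overlap each other in these windows, and a match is a description of letters only.

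Levels differed between the genes by several orders of magnitude. Levels of different genes were compared as normalized CPM per kb of exon, averaged over the 4 samples, with the union of annotated exons as the length. Apoe, the ligand by which remnant particles bind LDL receptor family members, was highest at 382 CPM per kb (range 213 to 603). This was above 98.7% of those of the 14142 tested genes that had an annotated exon length. Apoa2, the second protein of HDL, followed at 3.40 (2.81 to 4.06), and Apob at 1.55 (0.828 to 2.18). The ranges of these 3 genes did not meet. Apoa1, the main HDL protein, had only 0.209 CPM per kb (0.0950 to 0.342). Its range overlapped that of Apom, a carrier of sphingosine 1-phosphate on HDL, at 0.105 (0.0588 to 0.137). Apoh, a phospholipid-binding plasma protein, was at 0.0420, Apoc1, an inhibitor of lipoprotein uptake and lipase, at 0.0293, and Apoa5, an activator of triglyceride hydrolysis, at 0.0220, and neighbours in this order overlapped. In CPM without length, Apob ranked above Apoa2.

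**Figure D1:**
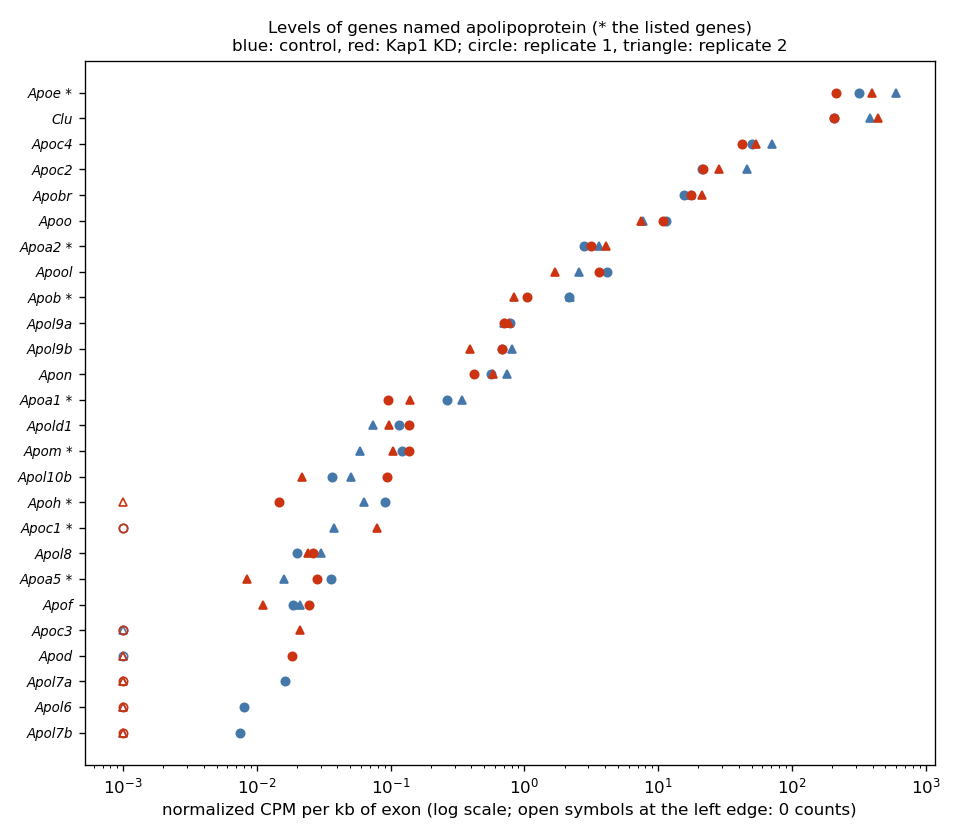
Normalized CPM per kb of exon (log axis) of the 8 listed genes (asterisks) and 18 other genes named apolipoprotein, 1 symbol per sample (blue control, red Kap1 KD, circles replicate 1, triangles replicate 2, open symbols 0 counts). Apoe lies above all other listed genes, with Clu next to it, and Apoh, Apoc1 and Apoa5 lie at the bottom among genes with few or no counts.

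The genes lie in 2 clusters and at single sites of mm9. On chromosome 7, Apoe (20281458 to 20284515), Apoc1 (20274833 to 20278007), Apoc4 and Apoc2 share 27.6 kb of the minus strand. Within it Apoe was at 382 and Apoc1 at 0.0293 CPM per kb, while Apoc4 and Apoc2, whose product activates lipoprotein lipase, were at 54.4 and 29.4. The annotated Apoc4 gene lies inside Apoc2 on the same strand, over 3323 bases, so reads there cannot be assigned with certainty. On chromosome 9, Apoa1 (46036663 to 46038549) and Apoa5 (46076716 to 46080002) lie 1 each side of Apoc3, an inhibitor of triglyceride clearance, which had 1 count in all 4 libraries. Apob is on chromosome 12 (7984454 to 8023641), Apoa2 on chromosome 1 (173155185 to 173156510), Apoh on chromosome 11 (108204668 to 108275710) and Apom on chromosome 17 (35265942 to 35268995). Apoh overlaps Prkca on the opposite strand by 575 bases and Gm11656 on its own strand by 3217 bases.

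The question of the Kap1 comparison was what loss of KAP1 does to transcripts. The listed genes were chosen with their level and their change in this comparison known, so their values in it are given as a description, and no call or interval on them is evidence of a change. Log2 fold changes and standard errors (SE) come from edgeR fitted on all genes, with trimmed mean of M values (TMM) normalization.

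Apob was the listed gene with the clearest separation. Control replicates 1 and 2 held 1675 and 1505 Apob counts, and Kap1 KD replicates 1 and 2 held 624 and 540. In normalized CPM these are 30.1 and 30.3 in control against 14.6 and 11.5 in Kap1 KD. Both Kap1 KD samples lay below both controls, and the controls differed little from each other. The group values were 30.2 ± 0.185 and 13.1 ± 2.20 CPM (SD, n = 2 each), a log2 fold change of -1.21 (SE 0.22), which is 2.31-fold lower in Kap1 KD. Leaving out each library in turn gave -1.39 to -1.03.

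Apoa1 was close to the limit of detection, at 18 and 21 counts in the controls against 5 and 8 after Kap1 KD. The normalized levels were 0.323 and 0.423 CPM in control and 0.117 and 0.171 CPM in Kap1 KD, without overlap, and the log2 fold change was -1.35 (SE 0.49), and it ran from -1.64 without Kap1 KD replicate 2 and -1.53 without control replicate 1 to -1.12 without control replicate 2 and -1.11 without Kap1 KD replicate 1. Pooled over the samples of each group, 13 counts stood against 39, a ratio of 0.393 with a 95% exact binomial interval of 0.192 to 0.752, which covers counting error only. Apoa1 entered the fit through its control samples, since its Kap1 KD counts alone are under the filter.

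Apoe had by far the most reads, from 34986 and 59241 counts in control replicates 1 and 2 to 17930 and 36593 in the Kap1 KD replicates. The normalized levels were 628 and 1194 CPM in control and 421 and 782 CPM in Kap1 KD. The groups overlapped, because Kap1 KD replicate 2 lay above control replicate 1. The group values were 911 ± 400 and 602 ± 255 CPM (SD, n = 2 each), and the log2 fold change of -0.60 had an SE of 0.44. It ranged from -1.11 without Kap1 KD replicate 2 to -0.042 without control replicate 2, and it was -0.99 without control replicate 1 and -0.22 without Kap1 KD replicate 1. Within same-numbered pairs, where the value is the difference in log2 of CPM plus 0.1, Apoe was lower in Kap1 KD by a similar step, at -0.58 for replicate 1 and -0.61 for replicate 2.

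Apoa2 did not share this direction. Its controls held 84 and 96 counts and its Kap1 KD samples 72 and 102, or 1.51 and 1.93 against 1.69 and 2.18 CPM. The groups overlapped, with a log2 fold change of 0.17 (SE 0.33). The pairs gave 0.15 and 0.16. Without Kap1 KD replicate 2 or without control replicate 1 the value was -0.018 or -5.7e-04.

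The other 4 genes were under the filter on low counts. For Apoh, 8 and 5 counts stood in the controls against 1 and 0 after Kap1 KD, a pooled ratio of 0.0906 with an exact binomial interval of 0.00213 to 0.603. For Apom, 7 and 3 counts stood against 6 and 5 (ratio 1.30, interval 0.50 to 3.40). Apoa5 had 5 and 2 counts against 3 and 1 (ratio 0.673, interval 0.145 to 2.65). Apoc1, with 0 and 1 counts against 0 and 2 (ratio 2.36, interval 0.123 to 139), was at or near 0 in every library. These intervals pool the reads of each group and hold no spread between samples.

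**Figure D2:**
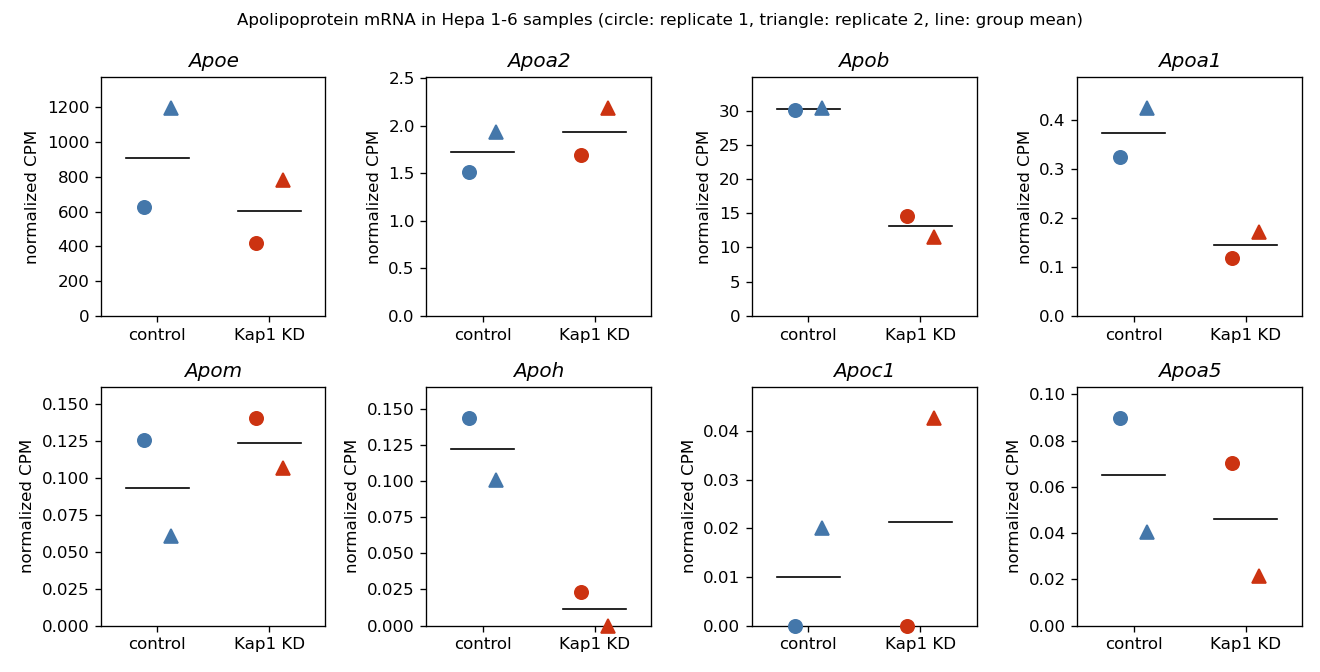
Normalized CPM of each listed gene in each sample, on a linear axis from 0 (blue control, red Kap1 KD, circles replicate 1, triangles replicate 2, lines group means of 2 samples). The groups do not overlap for Apob, Apoa1 and Apoh, the last with at most 8 counts, while Apoe is higher in replicate 2 than in replicate 1 of both groups and its groups overlap.

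edgeR's quasi-likelihood test called 0% of the 14142 tested genes higher and 0% lower in Kap1 KD when a call needed 1.5-fold and an adjusted p (Benjamini-Hochberg) below 0.05. Trim28 itself, 5.58-fold lower and the target of the shRNA, was not called (unadjusted p = 2.1e-04, adjusted p = 0.99994 in edgeR), so the absence of calls in this fit says nothing about whether genes changed. An unadjusted p under 0.05 was found for 185 tested genes, and DESeq2 called 2 higher and 1 lower. Both Kap1 KD samples lay below both controls for 2 of the 4 genes, Apoa1 and Apob, against 10.6% of all tested genes. Apoa1, Apob and Apoe, 3 of the 4, were lower in both same-numbered pairs, against 38.1% of all tested genes. Since this contrast chose the genes, nothing is read from these counts. Their median log2 fold change was -0.90, and that of all tested genes -0.02.

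Hepatocyte markers were looked at beside these values. All 6 tested of the 13 listed hepatocyte markers were lower in Kap1 KD in both pairs, against 38.1% of all tested genes. The median log2 fold change of the 6 was -0.52, with the largest at -0.89 for Alb, the main plasma protein. The summed level of that list was 2472 to 2762 CPM in control and 1382 to 1983 CPM in Kap1 KD. All 5 tested cholangiocyte markers were also lower in both pairs, with a median of -0.35. Their part in the apolipoprotein values was not tested, and in bulk RNA fewer cells of a type and less RNA per cell cannot be told apart.

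The remaining genes named apolipoprotein are described without comparing their range with that of the listed genes, which were chosen with their change known. Of 23 such genes, 10 were tested. Their median log2 fold change was -0.20, from -0.48 to 0.30. Clu, the chaperone also known as apolipoprotein J, had 708 and 1313 CPM in control and 705 and 1510 in Kap1 KD. Apoc2, the neighbour of Apoe, had 19.9 and 42.9 CPM in control and 20.0 and 26.6 in Kap1 KD, with a value of 0.01 for the replicate 1 samples and of -0.69 for the replicate 2 samples. Apol9b, of the interferon-inducible apolipoprotein L group, had pair values of 0.0032 and -0.95. Apobr, a receptor for Apob-containing particles, was at 0.18 and 0.27.

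**Figure D3:**
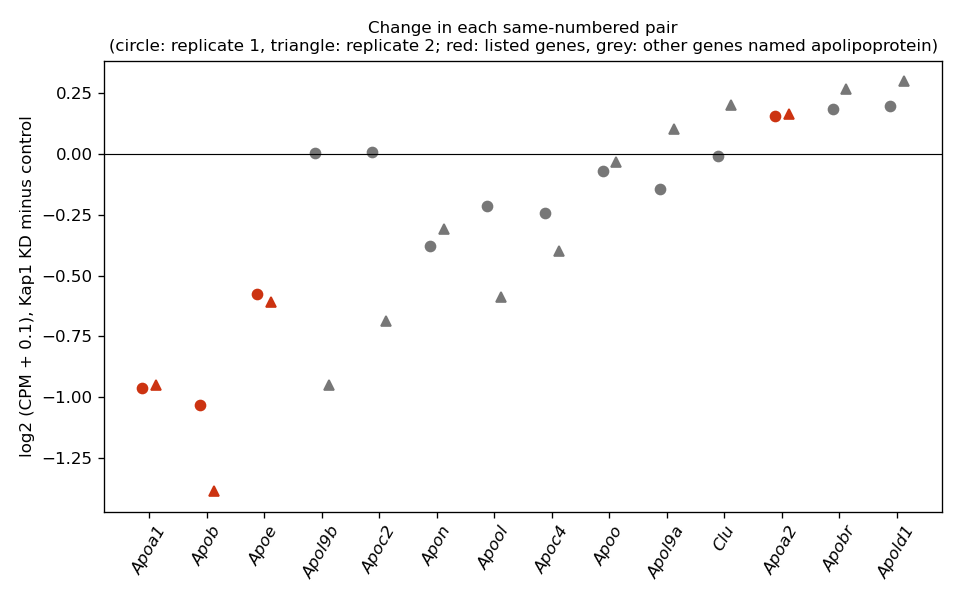
Kap1 KD minus control in log2 of CPM plus 0.1 for each same-numbered pair (circles replicate 1, triangles replicate 2) of the tested listed genes (red) and other tested genes named apolipoprotein (grey). Apoa1, Apob and Apoe lie below 0 and Apoa2 above 0 in both pairs. The listed genes were chosen with these changes known, so they are not ranked against the grey genes.

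Genes that assemble, edit, receive and regulate lipoproteins were examined beside the apolipoproteins in Kap1 KD. None was called in either direction in this fit, which could not call Trim28 either, so the values are given as a description. The 17 tested of 20 listed genes of lipoprotein assembly and secretion had a median log2 fold change of -0.06. Those with the highest CPM, without regard to length, were P4hb, the small subunit of the lipid transfer complex, and Hspa5, the endoplasmic reticulum chaperone, at -0.05 (SE 0.21) and -0.06 (SE 0.16). The largest values were -0.66 (SE 0.39) for Tm6sf2, a membrane protein of lipoprotein lipidation, and -0.49 (SE 0.20) for Sort1, a sorting receptor that binds Apob. Mttp, which loads Apob with lipid, was not among these and was looked up after its values were seen, with 13.4 and 14.8 CPM in control and 11.6 and 10.2 in Kap1 KD.

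Of 7 genes of Apob mRNA editing, which creates the short Apob form, 5 were tested (median -0.08). Apobec1, the editing deaminase, had the largest value at 0.59 (SE 0.31), with 35.5 and 21.8 CPM in control and 48.5 and 37.6 in Kap1 KD. Its groups did not overlap, but the share of all tested genes higher in this way is not given here. Rbm47, an editing cofactor, was at -0.20 (SE 0.24), and the RNA-binding genes Hnrnpab and Syncrip, highest of the list in CPM without regard to length, were at -0.05 and -0.10.

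Receptors showed values on both sides of 0. Among 14 tested of 15 receptor and uptake genes the median was 0.06. Lrp8, a receptor of Apoe, was lowest at -0.67 (SE 0.31), with 44.3 and 28.3 CPM in control and 26.1 and 19.7 in Kap1 KD. Scarb1, the HDL receptor, was highest at 0.49 (SE 0.31). Cd81, a tetraspanin with one of the highest levels of the list in CPM without regard to length, was at -0.02.

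Of 21 genes of HDL formation, lipases and their regulators, 12 were tested (median -0.16). Lipc, hepatic lipase, was at 0.76 (SE 0.58), from 5 to 12 counts per library. Abcg1, a cholesterol exporter to HDL, was at -0.53 (SE 0.48). Pcolce2 and Pon2, with the highest CPM of the list without regard to length, were at 0.19 and -0.10.

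The 27 tested of 29 transcription regulators of apolipoprotein genes had a median of -0.09. The extremes were Nr1h3, the oxysterol receptor LXRα, at -0.64 (SE 0.62), and Nr2f6, an orphan nuclear receptor, at 0.62 (SE 0.33), whose pair values were 0.05 and 1.09. Srebf2 and Srebf1, the regulators of sterol and fatty acid synthesis, had the highest CPM and lay at -0.13 and -0.15.

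How the apolipoproteins varied between samples of the same group is a comparison that the choice of genes did not use. It was fitted in edgeR as replicate 2 against replicate 1, with the group as a further term, which leaves 1 residual degree of freedom. Across all tested genes 9.08% (1284) were called higher and 17.4% (2464) lower in replicate 2, and with scaling to total counts 847 and 2957. Of the 4 listed genes tested, 1 was called.

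Apoe was higher in replicate 2 by 0.91 on the log2 scale (SE 0.06), which is 1.88-fold (adjusted p = 2.07e-51 in edgeR's quasi-likelihood test). The step was 0.93 between the control samples and 0.89 between the Kap1 KD samples. Both are steps between samples of 1 group, beside which the groups differed by -0.60 (SE 0.44). That SE comes from the fit without the replicate number, so it includes the step between replicates. It cannot be compared with the SE of 0.06, from a fit with both terms. In DESeq2 the value was 0.92 (adjusted p = 2.66e-31), and without the group term it was 0.91 (adjusted p = 0.0326 in edgeR). The adjusted p over the alternatives with a test ranged from 4.27e-67 to 0.0326.

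Apob, Apoa1 and Apoa2 did not pass the test. Apob was at -0.15 (SE 0.09, adjusted p = 0.143 in edgeR), with 0.012 between the control samples and -0.34 between the Kap1 KD samples. Apoa1 was at 0.43 (SE 0.46, adjusted p = 0.430) and Apoa2 at 0.36 (SE 0.21, adjusted p = 0.116) in the same test. By the Euclidean distance of mean-centred log2 levels over the 4 samples, Apob lay farthest from Apoa2 (1.47) and then from Apoe (1.25). Apoa1 and Apob were nearest to each other (0.57).

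**Figure D4:**
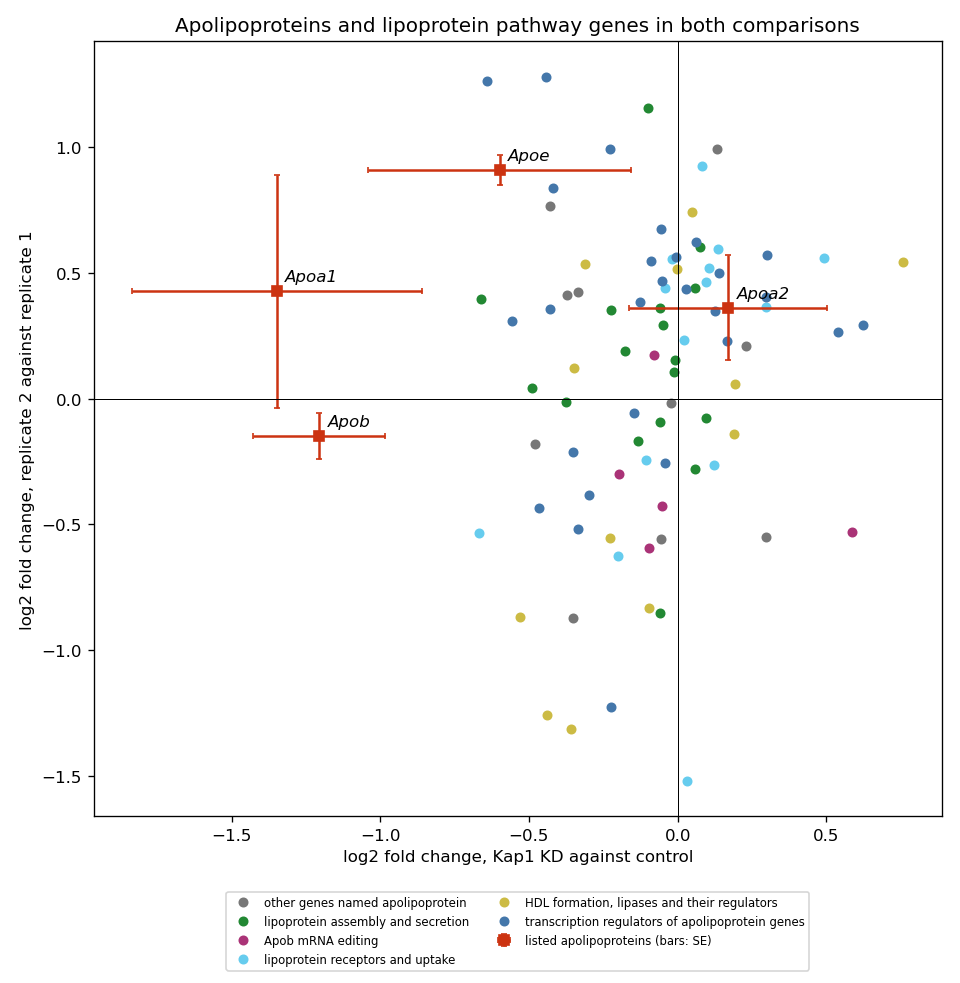
Log2 fold change of Kap1 KD against control (horizontal) and of replicate 2 against replicate 1 (vertical) for the tested listed apolipoproteins (red squares, bars SE) and the tested genes of the lipoprotein lists (circles). Apob and Apoa1 lie far to the left, while Apoe lies at -0.60 and 0.91, with a shorter bar on the vertical axis.

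In the other lists of lipoprotein genes the share called between replicates was near or below that of all tested genes, 26.5% in either direction (3748), except that 5 of 12 HDL and lipase genes were called, and nothing is read from these shares. Of the 10 tested genes named apolipoprotein outside the list, Clu (1.99-fold) and Apoc2 (1.70-fold) rose in replicate 2. Apool, a protein of mitochondrial cristae despite its name, fell in replicate 2 (log2 -0.87). Of the regulators, 5 rose, among them Hnf4a (1.79-fold), Nr1h3 (2.41-fold) and Ppara (2.43-fold), and 1 fell, Foxa1 (log2 -1.23), while 21 of 27 were not called. Hnf4a, a nuclear receptor that binds many apolipoprotein promoters, had 110 and 203 CPM in control and 85.4 and 149 CPM in Kap1 KD. Nr1h3 had 2.77 and 7.74 CPM in control and 2.25 and 4.47 CPM in Kap1 KD. Both shared the order of samples seen for Apoe, and whether either bears on Apoe was not tested.

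Dgat2 (2.23-fold) and Plin2 (1.52-fold), which make and coat triglyceride stores, rose in replicate 2, and Mia2, an export receptor of the endoplasmic reticulum, fell (log2 -0.85). Vldlr, a receptor of Apoe-containing particles, fell by 1.52 on the log2 scale and Lrp1 by 0.63, while the proteoglycan Sdc1 rose (1.51-fold). Of the HDL and lipase genes, 4 fell, Lpl (log2 -1.31), Abca1 (-1.26), Abcg1 (-0.87) and Pon2 (-0.83), and Angptl4, an inhibitor of lipoprotein lipase, rose (1.67-fold). Of the editing genes, 1 of 5 fell, Syncrip (log2 -0.60). All these calls are from edgeR at the thresholds given above.

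Macrophages also make Apoe, so the markers of that list were looked at between replicates. Cd68, Csf1r, Lyz2 and Cd14, 4 of the 5 tested of 8 listed macrophage markers, rose in replicate 2. Aif1 was not called, and 9.08% of all tested genes were called higher. The list summed to 21.6 to 23.0 CPM in replicate 1 samples and to 35.3 to 39.6 CPM in replicate 2 samples. The defining genes Ptprc (0.0718 to 0.171 CPM) and Adgre1 (1 to 5 counts) stayed near 0. Of the 6 tested hepatocyte markers Alb fell in replicate 2 (log2 -0.88) and 5 were not called, with a list median of 0.34. Of the 5 tested cholangiocyte markers Krt7 (-1.36) and Krt19 (-2.62) fell, while Epcam (-0.30), Sox9 (0.21) and Spp1 (0.19) were not called. Neither of the 2 tested endothelial markers was called, and of 3 tested stellate and fibroblast markers Col1a1 rose (1.54-fold). The part of these differences in the Apoe value was not tested.

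Genes with the sample pattern most like the apolipoproteins were sought among all tested genes, over the 4 samples, by the same Euclidean distance. Nearest to the mean of the 4 tested members was Cpt1a (distance 0.03), the gate of mitochondrial fatty acid oxidation, with 53.3 and 69.8 CPM in control and 35.2 and 42.3 in Kap1 KD. Bco2, a carotenoid cleavage enzyme (0.06), and Tpm2, a tropomyosin (0.06), followed. Nearest to Apoe alone were Hkdc1, a hexokinase family gene (0.09), Gmpr, a guanosine monophosphate reductase (0.12), and Mylk, the myosin light chain kinase (0.13). The members themselves lay 0.57 to 1.47 apart, so their mean is not the pattern of any 1 of them. It also holds the Kap1 KD change by which the members were chosen. All these distances rest on 4 libraries and are given as a description.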

How the data were processed

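Polyadenylated RNA was sequenced from 4 Hepa 1-6 samples. Per the labels and methods, the authors aligned reads to mm9 with TopHat2 2.0.11, reporting 1 alignment per read, and deposited raw HTSeq 0.6.1 counts per Ensembl gene, without normalization. Whether counting used strand is not given in the sources used here. The small RNA tables of the other 4 samples hold tRNA and snoRNA sequences and were not used.

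Symbols, mm9 coordinates and exon lengths came from GENCODE M1, which matched 21806 of 21915 identifiers; promoters came from RefSeq (GRCm38.p6, 8 of 9 genes found). Genes were filtered (filterByExpr), TMM-normalized and tested with edgeR 4.0.16 in R 4.3.3, without the replicate number for Kap1 KD against control and with group as a term for replicate 2 against 1. SE was taken as the absolute log2 value over the root of the F statistic. Thresholds were those of the study's methods, 1.5-fold and an adjusted p (Benjamini-Hochberg) below 0.05. DESeq2 1.42.0 was an alternative. Pair values used CPM plus 0.1, which understates changes of genes with few counts. Intervals cover counting error only.

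The members and gene lists were chosen with earlier results of these data known. Named were the members, Trim28, and in each list the 2 most abundant genes and the 2 with the largest Kap1 KD change, genes called between replicates where a list had at most 5 in a direction, marker genes, the 3 nearest profiles, and neighbours in the clusters. Some genes that this rule names are not reported here. Alternatives covered test, scaling, filter, fold minimum, replicate block, pseudocount and leaving out each sample. Both fits were first tested on simulated data. The replicate comparison recovered nearly all planted changes. These were larger than the fold threshold, in genes with many counts and with little simulated spread. Changes in genes with lower counts, such as Apoa1 and Apoa2, were not planted. The Kap1 KD fit recovered none without the replicate number and all with it as a block. The Kap1 KD simulation gave same-numbered samples a shared difference, so this outcome followed from its setting. It does not show that the real samples are paired.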

Additional observations from a re-analysis of the deposited data

How the results depend on the processing

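With the replicate number as a block, edgeR called 292 genes higher (2.06%) and 339 lower (2.40%) in Kap1 KD, among them 3 listed genes, Apoa1, Apob and Apoe, all lower, and 1 gene each of the editing (Apobec1), receptor (Lrp8) and regulator (Nr1h3) lists. The listed genes were chosen by their change within these pairs, and Apoa1 passed the filter through its controls, so these calls restate the choice. Deviations of same-numbered samples from their group means correlated at 0.81 across genes, which with 2 pairs is a hint from the data and does not establish a pairing. DESeq2 with the block called 106 higher and 121 lower, with 1 listed gene (Apob) and 1 each of the editing and receptor lists. The block without the low-count filter, chosen after seeing the data, gave 321 and 304, with 1 listed gene (Apob), 1 each of the editing and receptor lists and 1 regulator, Nr2f6 in place of Nr1h3. Without the block the Kap1 KD calls were 2 higher and 1 lower in DESeq2. Leaving out each sample gave 2 to 45 higher and 1 to 20 lower, the most without Kap1 KD replicate 1.

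The Kap1 KD value of Apoa2 ran from -0.018 (without Kap1 KD replicate 2) to 0.38 (without control replicate 2), and was -5.7e-04 without control replicate 1. Between replicates, leaving out a sample left no residual degree of freedom, so values only are given; that of Apob was 0.012 without either Kap1 KD sample and -0.34 without either control. With no fold minimum, 4450 genes were called higher and 4540 lower in replicate 2, with 6 of the other genes named apolipoprotein, 9 of assembly, 5 of editing, 11 of receptors, 8 of HDL and lipases and 22 of the regulators. Total-count scaling called 847 genes higher and 2957 lower, with 2 editing genes. The editing count was 0 with DESeq2, with its size factors and with no filter.

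On total counts the Apob control level was 30.7 CPM. With 1 CPM added instead of 0.1, the pair values shrank to -0.24 and -0.28 for Apoa1, 0.10 and 0.12 for Apoa2, -0.026 in both pairs for Apoa5, -0.16 and -0.14 for Apoh, and in the replicate 2 pair to 0.032 for Apoc1 and 0.062 for Apom. Depth limits Apoh, Apom, Apoa5 and Apoc1, which had at most 8 counts in a library.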
